A study of Mus musculus with 22 samples.

Results

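The genes described here are 8 non-classical (class Ib) MHC class I genes of the mouse, chosen by symbol among the 78298 genes of the deposited count tables: H2-T23, H2-T22, H2-Q4, H2-Q6, H2-Q7, H2-M3, Cd1d1 and Mr1. All 8 symbols matched an Ensembl gene ID, and all 8 passed the filter on low counts in every comparison. They were followed in 22 polyadenylated RNA sequencing libraries of a study that asks whether sex determines natural killer (NK) cell immunity against pancreatic cancer. NK cells, lymphocytes able to kill tumour cells without prior sensitisation, came from spleens of female and male mouse donors. They were sequenced after 24 h of co-culture with the mouse pancreatic cancer line Panc02 in interleukin-2 (IL-2, a cytokine that sustains NK cells), after 24 h of monoculture in IL-2, or fresh and untreated, with 2 libraries per sex in each condition. Panc02 tumours grown as allografts gave 4 libraries from female and 4 from male hosts, and Panc02 cells cultured alone gave 2. The labels give no strain or age and no immune status of the hosts, and Panc02 is a single established line. The labels do not tie each sample to its own animal or culture, so the p-values speak of variation among libraries, which may be partly technical.

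Classical class I molecules (H2-K1, H2-D1) are highly polymorphic and present peptides to CD8+ T cells. The non-classical molecules are less polymorphic, present narrower sets of ligands and are recognised by NK cells and by unconventional T cells. H2-T23 encodes the heavy chain of Qa-1, which presents leader peptides of other class I molecules to the CD94-NKG2 receptors of NK cells; the inhibitory form of that receptor pairs Klrd1 (CD94) with Klrc1 (NKG2A). H2-T22 encodes a molecule recognised by a subset of gamma-delta T cells without a presented peptide. H2-Q6 and H2-Q7 encode Qa-2, a class I protein often anchored by a glycolipid tail, and H2-Q4 encodes the related molecule Qb-1. H2-M3 presents peptides that begin with N-formyl methionine, Cd1d1 presents lipids to natural killer T cells, and Mr1 presents vitamin B metabolites to mucosal-associated invariant T cells. All these heavy chains pair with beta-2 microglobulin (B2m). Most class I heavy chain genes of the H2 region are known to respond to interferons through an interferon-stimulated response element (ISRE) in the promoter and through the transactivator Nlrc5.

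Of the 8 genes, 6 lie on chromosome 17 in the H2 region (GRCm39 coordinates from the count tables). H2-Q4 (ENSMUSG00000035929) spans 35598593 to 35604266, H2-Q6 (ENSMUSG00000073409) 35643826 to 35649031 and H2-Q7 (ENSMUSG00000060550) 35658131 to 35662749, all on the plus strand. H2-T23 (ENSMUSG00000067212) spans 36340665 to 36343747 and H2-T22 (ENSMUSG00000056116) 36348020 to 36353639, both on the minus strand. H2-M3 (ENSMUSG00000016206) lies at 37581111 to 37585375 on the plus strand. Cd1d1 (ENSMUSG00000028076) lies on chromosome 3 at 86903141 to 86906748 and Mr1 (ENSMUSG00000026471) on chromosome 1 at 155003023 to 155022560, both on the minus strand.

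Promoter sequences were matched for 7 of the 8 genes in a RefSeq table of build GRCm38.p6 (Cd1d1 was not matched), and the 250 bases before the start were searched on both strands. Stretches of 60 bases are shown for the 6 genes of the H2 region, because they show which letters the genes share with the classical class I promoters and where H2-T23 departs from them. Each runs 5′ to 3′ in the direction of its gene, with searched motifs in capitals.
H2-Q4, chr17:35379433-35379492, plus strand: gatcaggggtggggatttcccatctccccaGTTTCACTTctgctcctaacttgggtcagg
H2-Q6, chr17:35424667-35424726, plus strand: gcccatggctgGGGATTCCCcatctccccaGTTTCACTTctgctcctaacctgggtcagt
H2-Q7, chr17:35439011-35439070, plus strand: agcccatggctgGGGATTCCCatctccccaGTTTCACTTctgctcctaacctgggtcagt
H2-T22, chr17:36042905-36042964, minus strand: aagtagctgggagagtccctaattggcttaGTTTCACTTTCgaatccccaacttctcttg
H2-M3, chr17:37270102-37270161, plus strand: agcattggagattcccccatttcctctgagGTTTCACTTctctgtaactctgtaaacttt
H2-T23, chr17:36032796-36032855, minus strand: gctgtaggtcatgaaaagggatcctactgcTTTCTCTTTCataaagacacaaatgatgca

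The motif GTTTCACTT, part of the interferon element known from classical class I promoters, was chosen after the sequences had been seen. It occurred in 5 of the 7 promoters (H2-Q4, H2-Q6, H2-Q7, H2-T22 and H2-M3), against 111 of all 32851 promoters (0.338%), and also in those of H2-K1 and H2-D1. GGGATTCCC, an NF-kB site of the class I enhancer, occurred in H2-Q6 and H2-Q7 and in 0.301% of all promoters. The core of an ISRE, searched as GAAA, any 2 bases and GAAA again, occurred on the opposite strand (TTTC as printed) in H2-T22 and H2-T23 and in 2.98% of all promoters; in H2-T22 it overlaps GTTTCACTT. H2-T23 thus held the ISRE core without GTTTCACTT, and the window of Mr1 held none of these letters. A match describes the letters only.

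Reads that map to several genes were counted, so similarity to other genes bears on the values of those that share sequence. Of the distinct stretches of 75 bases in the reference transcripts of each gene, H2-T22 shared 18.5% with another gene (15.7% with H2-T10), H2-Q6 17.9% (9.8% with H2-Q7) and H2-Q7 17.0%. Cd1d1 shared 14.2%, all with Cd1d2, H2-Q4 shared 7.0% and H2-T23 5.9%, whereas H2-M3 and Mr1 shared 0.0%. Values of H2-Q6, H2-Q7 and H2-T22 are therefore uncertain by what their near copies contribute.

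Total counts ranged from 13025549 to 46842646 per library. All 8 NK cell markers had at least 10 counts in each fresh and monoculture library and summed to 7874 to 9078 CPM (counts of a gene scaled to a library total of 1000000). The co-culture libraries are labelled with both cell types, and the labels do not say whether these were separated. Epithelial markers of Panc02 summed to 2892 to 2992 CPM in co-culture, against 2951 and 2981 CPM in cultured Panc02. Taking 331 genes with at least 20 CPM in monoculture and at most 0.1 CPM in Panc02, the NK share of co-culture RNA was 2.80% and 3.40% with female NK cells, against 2.05% and 1.74% with male NK cells. Co-culture libraries are thus read below as Panc02 RNA with a small NK part. Allografts hold host cells: macrophage markers summed to 2315 to 4307 CPM and fibroblast markers to 4763 to 14858 CPM, against 75.1 and 77.7 CPM and 1.28 to 2.01 CPM in cultured Panc02. In such bulk libraries, fewer cells of a type and less RNA per cell cannot be told apart.

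**Figure D1:**
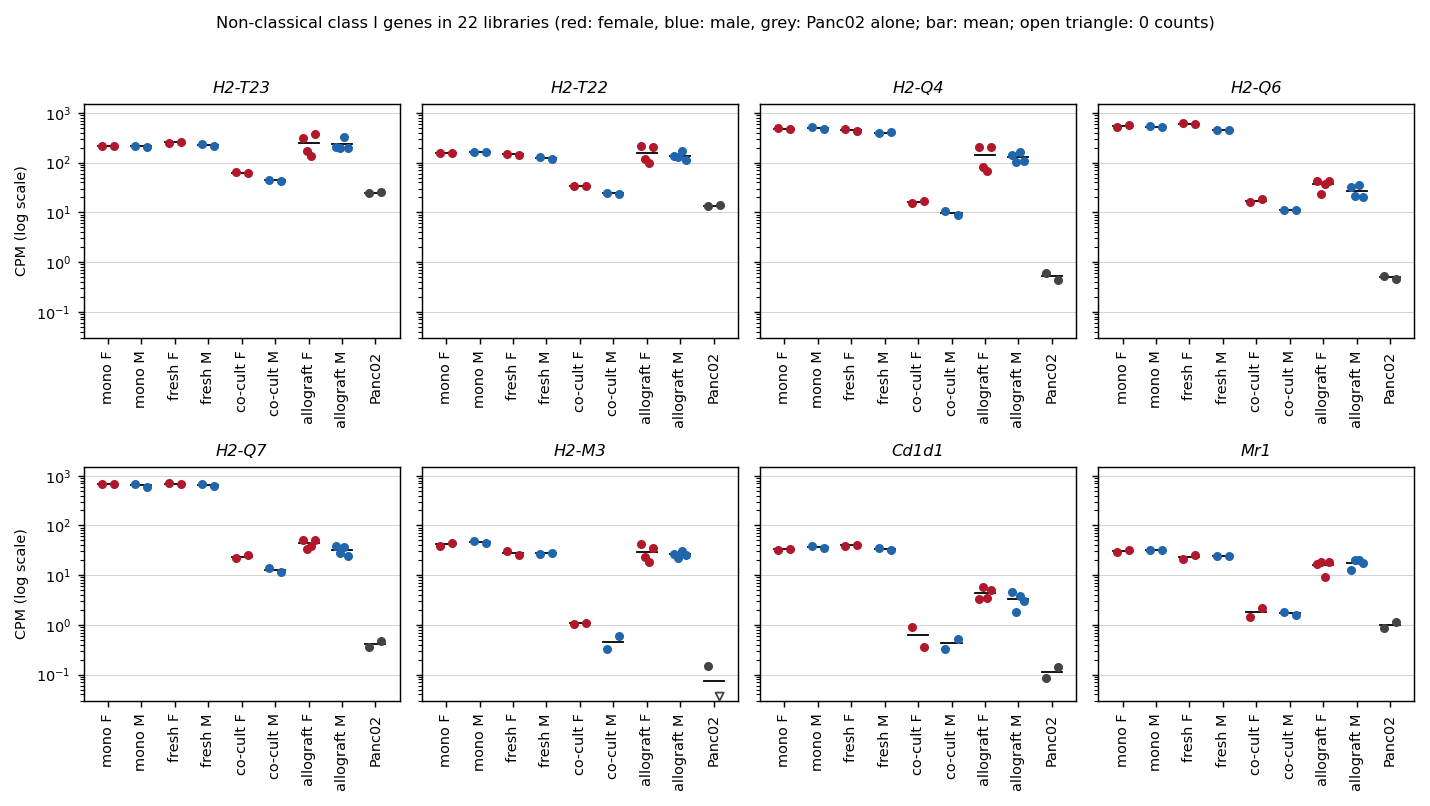
CPM of the 8 genes on a log axis in each library, by group; points are libraries, bars are group means, F and M stand for female and male donors or hosts, and the open triangle is a library with 0 counts. NK cells hold all 8 genes, whereas Panc02 alone holds H2-T23 and H2-T22 at 13.3 to 26.1 CPM and the other 6 genes at no more than 1.12 CPM.

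NK cells carried all 8 transcripts. Compared per length as RPKM (CPM divided by exon length in kilobases), the Qa-2 gene H2-Q6 had the highest level over the 8 monoculture and fresh libraries at 255 ± 29.0 RPKM (SD, n = 8). H2-Q4 followed at 178 ± 17.6 RPKM and H2-Q7 at 156 ± 9.05 RPKM, and the ranges of these neighbours overlapped (151 to 205 and 140 to 167 RPKM). H2-T23 lay at 79.4 ± 6.48, H2-T22 at 43.4 ± 4.65 and H2-M3 at 24.9 ± 6.31 RPKM. Cd1d1 at 14 ± 1.24 and Mr1 at 4.59 ± 0.729 RPKM were the lowest of the 8, and neither overlapped its neighbour.

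The order in Panc02 cells was different. H2-T23 at 8.31 and 9.05 RPKM and H2-T22 at 3.89 and 4.05 RPKM stood above the other 6 genes, whose means were 0.0443 (Cd1d1) to 0.236 RPKM (H2-Q6). The 8 allografts also had H2-T23 first, at 83.5 ± 28.9 RPKM, followed by H2-Q4 at 51.7 ± 20.3 and H2-T22 at 43.4 ± 13.1 RPKM (SD, n = 8). H2-M3 at 19.5 ± 5.44 RPKM came before the Qa-2 genes H2-Q6 at 15.2 ± 4.32 and H2-Q7 at 8.93 ± 2.26 RPKM, with ranges of neighbours overlapping. The balance within the Q genes thus differed by sample type: the ratio of H2-Q4 to the sum of H2-Q6 and H2-Q7 in RPKM was 0.987 to 2.63 in allografts, above 0.384 to 0.486 in monoculture and fresh NK cells. No allograft overlapped an NK library in that ratio.

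After 24 h of monoculture with IL-2, H2-M3, Mr1, H2-T22 and H2-Q4 were higher than in fresh NK cells, while H2-T23, H2-Q6, H2-Q7 and Cd1d1 did not pass the test. A gene passed, rose or fell where its adjusted p was below 0.05. H2-M3, the presenter of formylated peptides, had 39.3 and 44.2 CPM in female and 48.0 and 44.2 CPM in male monocultures, against 31.1 and 25.4 CPM in female and 26.9 and 27.7 CPM in male fresh cells. All 4 monocultures lay above all 4 fresh libraries. The log2 fold change was 0.76 (SE 0.09, adjusted p = 3.41e-06 in edgeR's quasi-likelihood test over 19623 genes). Mr1 averaged 31.2 ± 1.79 CPM in monocultures and 23.7 ± 2.05 CPM in fresh cells (SD, n = 4 each), a log2 fold change of 0.50 (SE 0.09, edgeR adjusted p = 0.00032), again without overlap.

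H2-T22, the gamma-delta T cell ligand, averaged 160 ± 5.21 CPM in monocultures and 136 ± 12.7 CPM in fresh cells (SD, n = 4 each), without overlap. Its log2 fold change was 0.34 (SE 0.06, edgeR adjusted p = 8.8e-05). H2-Q4 averaged 494 ± 26.4 CPM in monocultures and 430 ± 37.8 CPM in fresh cells with overlapping libraries, a log2 fold change of 0.30 (SE 0.06, edgeR adjusted p = 0.00043). These are modest changes on a background in which 45.2% of all genes tested passed the threshold and 23.1% passed it upwards. All 4 members that passed were higher; the median log2 fold change of the 8 was 0.22, against 0.01 over all genes.

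The other members moved little in culture. H2-T23 (Qa-1) had 221, 215, 220 and 211 CPM in monocultures, against 250, 264, 235 and 219 CPM in fresh cells, a log2 fold change of -0.05 (SE 0.05, edgeR adjusted p = 0.44). The Qa-2 genes H2-Q6 and H2-Q7 had log2 fold changes of 0.13 and 0.07 (SE 0.06 each, edgeR adjusted p = 0.0706 and 0.344), and Cd1d1 of 0.03 (SE 0.08, edgeR adjusted p = 0.781). CPM and the fitted change of H2-T23 differ because the fit also rescales libraries by TMM factors.

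Partner genes of the 8 moved in both directions in culture. B2m, the shared light chain, rose by a log2 fold change of 0.62 (SE 0.05, edgeR adjusted p = 1.12e-07), and H2-T23 stood at 0.0205 to 0.0229 of the B2m level in RPKM in monocultures, against 0.03 to 0.0416 in fresh cells. The classical heavy chains H2-K1 and H2-D1 both rose, by 0.45 and 0.53 (SE 0.05 each). Of 14 genes for the light chain and peptide loading, 5 rose and 3 fell; Erap1, the peptide-trimming protease, rose by 0.58 (SE 0.06), and the chaperones Calr, Canx and Pdia3 fell by 0.31, 0.18 and 0.19 (SE 0.06 each). The median of that list was 0.04. Without single libraries the calls of Canx and Pdia3 were lost.

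Among 9 transcription regulators of class I genes, 5 rose and 1 fell. Nlrc5, the class I transactivator, rose by 0.43 (SE 0.06, edgeR adjusted p = 3.84e-05), and Irf2 and Rela rose by 0.39 (SE 0.07) and 0.34 (SE 0.06). Irf1 was the member that fell, by 0.15 (SE 0.06, edgeR adjusted p = 0.0478), a call that was lost in 7 of 8 fits without 1 library. Of 14 interferon-induced genes 5 rose and 7 fell: Socs1, a feedback inhibitor of cytokine signalling, rose by 2.82 (SE 0.08), whereas the antiviral genes Irf7, Oas1a and Mx1 fell by 1.12 (SE 0.07), 1.53 and 1.48 (SE 0.14 each). The receptor genes for Qa-1 split in the same comparison. Klrc1 and Klrd1 rose by 0.64 (SE 0.06) and 0.34 (SE 0.07), and Klrc2 and Klrc3, which encode activating partners of CD94, fell by 0.92 (SE 0.06) and 1.22 (SE 0.08).

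Of the 13 other class Ib genes with an ID, 9 were tested, and 1 rose while 3 fell in monoculture; their median was -0.18. H2-T24 had 5.05 ± 0.414 CPM in monocultures and 24.5 ± 1.52 CPM in fresh cells (SD, n = 4 each), a log2 fold change of -2.17 (SE 0.12, edgeR adjusted p = 5.97e-10). H2-M2 had 0.104 ± 0.119 CPM in monocultures and 6.53 ± 3.70 CPM in fresh cells, a log2 fold change of -6.07 (SE 0.46, edgeR adjusted p = 1.95e-08), which was -7.86 without male monoculture 4. H2-Q10 fell by 0.41 (SE 0.11) and H2-T10, the near copy of H2-T22, rose by 0.36 (SE 0.07). Dendritic cell, erythroid and B cell markers mostly fell in the same comparison, whereas 4 of 5 epithelial markers rose and 2 of 5 neutrophil markers fell. All 6 dendritic cell markers fell, with a median of -3.24; Itgax, which NK cells also express, makes most of their sum (298 ± 33.2 CPM in monocultures and 496 ± 65.5 CPM in fresh cells, SD, n = 4 each), and Flt3 and Clec9a had log2 fold changes of -4.03 and -6.37. Of 5 erythroid markers 4 fell, and their sum was 138 to 269 CPM in monocultures, against 462 to 990 CPM in fresh cells. All 5 B cell markers fell, summing to 1.27 to 5.08 CPM, against 9.61 to 19.9 CPM. Their part in these changes, and in those of the 8 genes, was not tested. The protocols describe bead capture for sorted NK cells and phenol extraction for cell experiments, so extraction and culture cannot be told apart here.

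**Figure D2:**
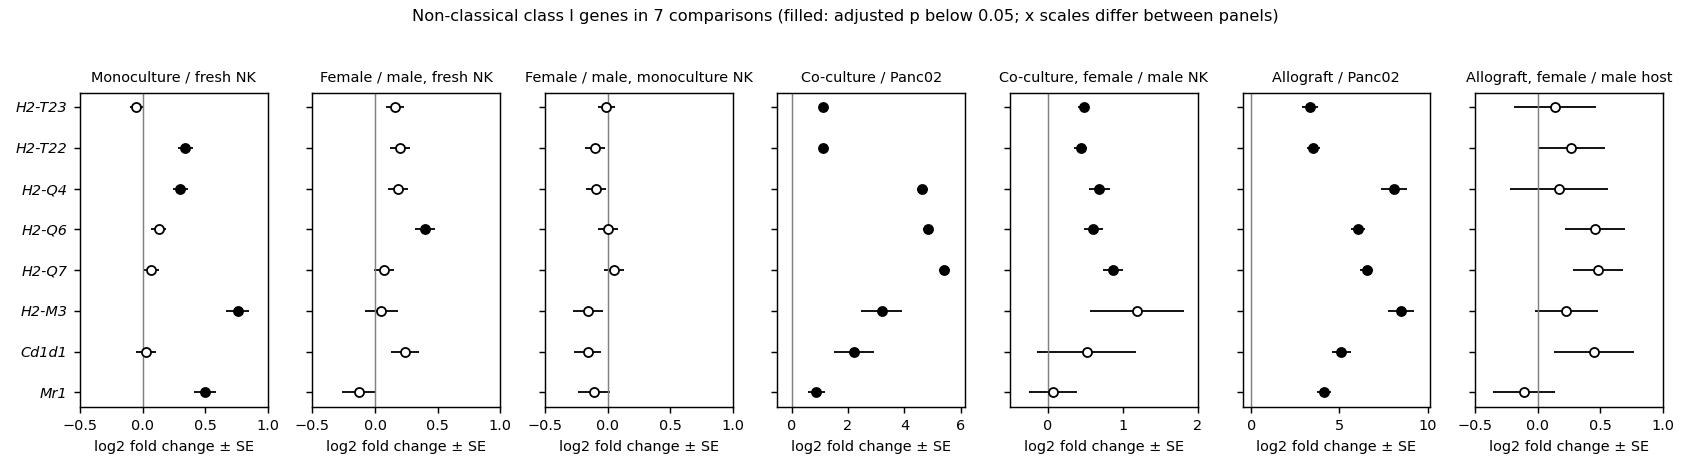
Log2 fold change with its SE for each of the 8 genes in 7 comparisons; filled points have an adjusted p below 0.05, and the x axes differ. The differences by donor or host sex stay within 0.5 in NK cells and allografts, whereas those of co-cultures and allografts against Panc02 alone reach 5.41 and 8.50.

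Between female and male fresh NK cells, 1 of the 8 genes differed: H2-Q6 (Qa-2) was higher in females. It had 622 and 589 CPM in female cells, against 457 and 447 CPM in male cells, without overlap, a log2 fold change of 0.40 (SE 0.08, edgeR adjusted p = 0.00568). Over all genes 8.59% passed the threshold in this comparison. H2-T22, Cd1d1, H2-Q4 and H2-T23 had log2 fold changes of 0.20, 0.24, 0.18 and 0.16 and did not pass (edgeR adjusted p of 0.13 to 0.215). Their libraries did not overlap between the sexes either. With 2 libraries per sex such a gap is frequent by chance, and it was not counted over all genes. H2-Q7 did not differ detectably (0.07, SE 0.08, edgeR adjusted p = 0.697).

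The balance between H2-Q6 and its near copy H2-Q7 comes from the same values as that call and was not tested. The ratio of H2-Q6 to H2-Q7 in RPKM was 1.78 and 1.8 in female fresh cells, against 1.37 and 1.48 in male fresh cells. When both genes were summed, the log2 fold change was 0.22 and the edgeR adjusted p 0.11. How multi-mapped reads were divided between both genes was not tested. The H2-Q6 call was lost without the first female library (0.29, adjusted p = 0.0927) and without male library 5 (0.39, adjusted p = 0.0602). Summed markers of some other cells lay apart between the same libraries. Neutrophil markers summed to 16.1 and 42.8 CPM in female and 109 and 283 CPM in male fresh cells. T cell markers summed to 20.1 and 16.7 CPM in female and 10.3 and 9.09 CPM in male fresh cells, and dendritic cell markers to 631 and 563 CPM in female and 517 and 468 CPM in male fresh cells. None of 5 neutrophil and 5 T cell markers tested passed the threshold, and 1 of 6 dendritic cell markers did. Of 5 erythroid markers 2 were lower in female cells. Their sums overlapped, with 990 and 758 CPM in female and 913 and 462 CPM in male fresh cells. The part of all these markers in the difference was not tested.

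Of the 14 genes for the light chain and peptide loading, 5 were higher and 2 lower in female than in male fresh cells. Psmb10 had 151 ± 13.3 CPM in female and 101 ± 3.13 CPM in male cells (SD, n = 2 each), a log2 fold change of 0.56 (SE 0.09, edgeR adjusted p = 0.00202). Psmb8, Psme1 and Tap2 were higher by 0.51 (SE 0.10), 0.45 and 0.35 (SE 0.08 each), whereas B2m and Canx were lower in females by log2 fold changes of -0.26 (SE 0.08, edgeR adjusted p = 0.0464) and -0.31 (SE 0.09, edgeR adjusted p = 0.034). Without the first female fresh library none of Psmb10, Psmb8, Psme1, Tap2 and B2m passed, with edgeR adjusted p between 0.0543 and 0.262. The call of Canx was lost without the second female library (adjusted p = 0.126), without male library 4 (adjusted p = 0.272) and with the 4 fresh libraries alone (adjusted p = 0.0512), all in edgeR. H2-K1 and H2-D1 did not pass (0.07 and 0.04).

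In monoculture, none of the 8 genes passed between the sexes by edgeR, at a background of 0.0764% (15 of 19623 genes); 0 of the 8 had an unadjusted p below 0.05, and DESeq2 also called 0. Log2 fold changes lay between -0.16 for H2-M3 and Cd1d1 and 0.05 for H2-Q7. Libraries of H2-T22, Cd1d1 and, narrowly, H2-M3 did not overlap between the sexes, with lower levels in females. H2-Q6 had 517 and 559 CPM in female cells, against 545 and 512 CPM in male cells, a log2 fold change of 0.00 (SE 0.08). The test of whether the sex difference itself changed with culture called 0 of the 8 genes by edgeR, at a background of 1.65%; 4 of 8 had an unadjusted p below 0.05, as did 3051 of 19623 genes. Over all genes 94 were called with a positive and 229 with a negative interaction, against 209 and 186 with median-ratio scaling. For H2-Q6 the interaction was -0.40 (SE 0.11, edgeR adjusted p = 0.0754), and it passed with DESeq2 (-0.35, adjusted p = 0.0189) and with no filter on low counts (-0.41, edgeR adjusted p = 0.0319).

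All 8 genes were higher in co-culture than in Panc02 cells alone, at a background of 18.3% called and 12.2% called higher. The labels give IL-2 for the co-cultures and not for Panc02 alone, so NK cells and IL-2 cannot be told apart here. H2-M3, Cd1d1 and the Q genes were close to 0 in Panc02. H2-M3 and Cd1d1 passed the filter through the co-cultures, so the count of 8 is a description. H2-T23 (Qa-1) had 64.3 and 60.7 CPM with female and 45.3 and 42.7 CPM with male NK cells, against 24.0 and 26.1 CPM in Panc02 alone. Every co-culture lay above both Panc02 libraries, with a log2 fold change of 1.12 (SE 0.06, edgeR adjusted p = 2.69e-11). H2-T22 had 33.2 and 33.3 CPM with female and 25.0 and 23.2 CPM with male NK cells, against 13.3 and 13.8 CPM in Panc02 alone, a log2 fold change of 1.11 (SE 0.08, edgeR adjusted p = 1.04e-09).

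The Q genes showed larger folds from a far lower base. H2-Q4 had 15.5 and 16.6 CPM with female and 10.6 and 8.91 CPM with male NK cells, against 0.598 and 0.427 CPM in Panc02 alone, a log2 fold change of 4.64 (SE 0.19, edgeR adjusted p = 1.67e-13). H2-Q6 and H2-Q7 had log2 fold changes of 4.85 (SE 0.18) and 5.41 (SE 0.19). H2-M3 averaged 0.767 ± 0.378 CPM in co-culture (SD, n = 4) and had 0.149 CPM in the first Panc02 library and 0 in the second, a log2 fold change of 3.19 (SE 0.74, edgeR adjusted p = 0.00409). It was 7.93 without the first Panc02 library and 2.28 without the second. Cd1d1 and Mr1 passed narrowly (2.22, SE 0.70, adjusted p = 0.032, and 0.87, SE 0.30, adjusted p = 0.0482 in edgeR); both calls were lost with DESeq2 (adjusted p = 0.0654 and 0.147) and in 4 and 5 of 6 fits without 1 library.

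Setting each co-culture against a mixture of monoculture NK cells and Panc02 at the estimated NK share separated the genes. H2-T23 was at 2.11 and 1.92 times the expected level with female and 1.56 and 1.5 times with male NK cells. H2-T22 was at 1.89 and 1.81 times with female and 1.5 and 1.43 times with male NK cells. H2-Q4, H2-Q6 and H2-Q7 lay at 0.96 to 1.15 times the expected level, and Mr1 at 0.812 to 1.12 times. H2-M3 (0.315 to 0.844) and Cd1d1 (0.293 to 0.855) lay below it in all 4 libraries, at levels under 1.2 CPM. With the NK part taken off the counts, an alternative chosen after the data were seen, H2-T23 kept a log2 fold change of 1.01 (SE 0.07, edgeR adjusted p = 9.98e-09) and H2-T22 of 0.94 (SE 0.08, edgeR adjusted p = 3.98e-07) over Panc02. H2-Q7, at 0.981 to 1.14 times the expected level, narrowly passed at 1.49 (SE 0.48, edgeR adjusted p = 0.048). H2-Q4, H2-Q6 and Mr1 did not pass (-0.05, 0.81 and 0.07), and H2-M3 and Cd1d1 fell below the count filter. These tests take the NK share as exact. Over the 331 genes its quartiles ran from 2.1 to 3.92% in the first female co-culture and from 1.36 to 2.31% in male co-culture 5. The mixture assumes that NK cells and Panc02 cells keep their RNA levels in co-culture.

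**Figure D3:**
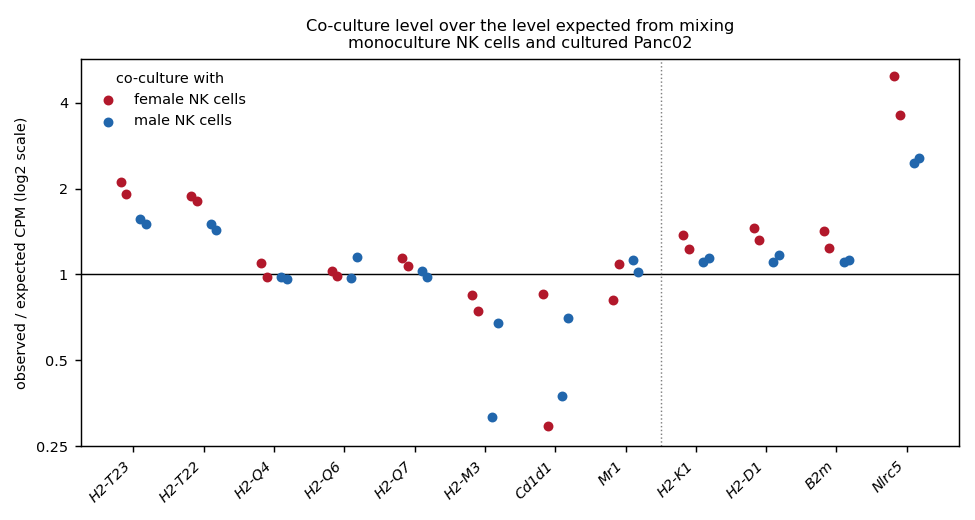
Observed over expected CPM in each co-culture library, on a log2 axis, where expected is the sum of the NK part and the Panc02 part; the dotted line separates the 8 genes from 4 other class I pathway genes. H2-T23 and H2-T22 stand at 1.43 or above in all 4 libraries, and the 3 Q genes at 0.96 to 1.15.

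Regulators of class I were also above the mixture, and the classical heavy chains and B2m were less so. Nlrc5 was at 4.95 and 3.62 times the expected level with female and 2.45 and 2.57 times with male NK cells, and rose over Panc02 by a log2 fold change of 3.05 (SE 0.10, edgeR adjusted p = 9.25e-15). Irf1, an interferon-induced transcription factor, stood at 3.77 to 6.77 times the expected level. H2-K1, H2-D1 and B2m were at 1.23 to 1.45 times with female and 1.11 to 1.17 times with male NK cells. The values with male NK cells overlap the range of the Q genes (0.96 to 1.15 times). Against Panc02 alone, with the NK part included, 12 of the 14 peptide loading genes rose and 0 fell. Their median log2 fold change was 1.73, against 0.01 over all genes. Psmb8 and Psmb9 were listed with 0 counts in both Panc02 libraries. They were at least 187-fold and 73.7-fold higher against a floor of 3 counts over the Panc02 libraries. These folds include NK RNA, and Psmb8 and Psmb9 were not set against the mixture. Of 14 interferon-induced genes 11 rose and 0 fell. Of the 4 other class Ib genes that could be tested, H2-Q10, H2-T10 and H2-Q1 rose. The call of H2-Q1 (0.84) was lost with DESeq2 (adjusted p = 0.0562), with male NK co-cultures only (0.45), without the first female co-culture and without either Panc02 library. With the NK part taken off, H2-Q1 (0.46, edgeR adjusted p = 0.285) and H2-T10 (-0.10, edgeR adjusted p = 0.943) did not pass, and H2-Q10 fell below the count filter. The log2 fold change of H2-T10 over Panc02 was 1.99, and 1.43 without the first Panc02 library.

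Co-cultures with female NK cells had more of 5 of the 8 genes than co-cultures with male NK cells, at a background of 1.14% called and 0.985% called higher. The difference was largest for H2-Q7, with 22 and 24.9 CPM with female and 13.9 and 11.4 CPM with male NK cells, a log2 fold change of 0.87 (SE 0.13, edgeR adjusted p = 0.000713). H2-Q4 and H2-Q6 were higher by 0.69 (SE 0.14, edgeR adjusted p = 0.0154) and 0.61 (SE 0.13, edgeR adjusted p = 0.0203). For H2-T23 the log2 fold change was 0.48 (SE 0.07, edgeR adjusted p = 0.000533) and for H2-T22 0.44 (SE 0.09, edgeR adjusted p = 0.0106). The libraries of the 5 genes did not overlap between the sexes, and neither did those of H2-M3. With 2 libraries per sex such a gap is frequent by chance, and it was not counted over all genes. H2-M3 (1.2, SE 0.63), Cd1d1 (0.52, SE 0.66) and Mr1 (0.07, SE 0.32) did not pass.

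The NK share of these libraries differed in the same direction, 3.10 ± 0.424% with female and 1.89 ± 0.215% with male NK cells (SD, n = 2 each). With the NK part taken off, H2-T23 and H2-T22 still differed by 0.48 (SE 0.07, edgeR adjusted p = 0.00284) and 0.43 (SE 0.09, edgeR adjusted p = 0.0364). H2-Q7, H2-Q4 and H2-Q6 did not pass then (2.35, SE 0.51, adjusted p = 0.0549; 2.32, SE 0.96, adjusted p = 0.471; -0.90, SE 1.08, adjusted p = 0.848, all edgeR). Without female library 2 or male library 5, 2 of the 8 genes passed, and H2-Q4, H2-Q6 and H2-T22 were the calls lost. The same comparison had Nlrc5 higher by 1.12 (SE 0.09), Irf1 by 0.78 (SE 0.06), H2-K1 by 0.68 (SE 0.05), B2m by 0.48 (SE 0.06) and Psmb10 by 0.78 (SE 0.07). With the NK part taken off, B2m lost its call (0.44, SE 0.10, edgeR adjusted p = 0.159) and the other 4 kept theirs. Of the 14 peptide loading genes 8 were higher with female NK cells and 0 lower, with a median log2 fold change of 0.54, against 0.00 over all genes. NK cell number and NK cell activity cannot be told apart in these libraries.

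In allografts all 8 genes were far above cultured Panc02, in a comparison where 62.1% of genes passed and 38.8% passed upwards. The median log2 fold change was 5.57 for the 8 genes, against 0.42 over all genes. H2-M3 and Cd1d1 passed the filter on low counts through the allografts, so the count of 8 and the median are descriptions. H2-T23 had 139 to 369 CPM with a median of 205 CPM over the 8 allografts, against 24.0 and 26.1 CPM in Panc02 alone, a log2 fold change of 3.34 (SE 0.45, edgeR adjusted p = 0.000143). H2-T22 had 96.2 to 218 CPM with a median of 130 CPM, against 13.3 and 13.8 CPM, a log2 fold change of 3.52 (SE 0.38, edgeR adjusted p = 2.25e-05). No allograft overlapped a Panc02 library for either gene.

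The genes that Panc02 barely expressed had the largest folds. H2-M3 had 18.5 to 43.2 CPM in allografts with a median of 26.0 CPM, against 0.149 CPM and 0 in the Panc02 libraries, a log2 fold change of 8.50 (SE 0.73, edgeR adjusted p = 5.67e-06). That size depends on the few Panc02 counts: it was 13.1 without the first Panc02 library and 7.59 without the second, and the gene passed the filter through the allografts. H2-Q4 had 69.0 to 204 CPM with a median of 124 CPM, against 0.598 and 0.427 CPM, a log2 fold change of 8.09 (SE 0.74, edgeR adjusted p = 1.37e-05). The Qa-2 genes H2-Q6 and H2-Q7 reached medians of 33.8 and 38.0 CPM, with log2 fold changes of 6.05 (SE 0.40) and 6.55 (SE 0.36). Cd1d1 had 1.85 to 5.72 CPM and Mr1 9.22 to 20.6 CPM, with log2 fold changes of 5.09 (SE 0.54) and 4.13 (SE 0.38). Allografts of female hosts alone and of male hosts alone both called all 8 genes, and so did the allografts without the 2 richest in muscle markers.

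The rest of the class I pathway was high in the same libraries. Tap1 and Tap2, the peptide transporter, averaged 125 ± 37.4 and 83.4 ± 23.7 CPM in allografts (SD, n = 8), with 1 and 8 counts over both Panc02 libraries, and Psmb8 and Psmb9 were at least 5255-fold and 2031-fold higher against the floor of 3 counts. Of 14 peptide loading genes 11 rose and 1 fell, with a median of 2.76; Canx was the gene that fell, by 1.21 (SE 0.14). Nlrc5 rose by 4.05 (SE 0.50), and all 14 interferon-induced genes rose, Irf9 by 2.99 (SE 0.21) and Irf7 by 5.97 (SE 0.43). Of 10 other class Ib genes tested 9 rose, among them H2-T24 with 5.66 ± 1.15 CPM in allografts (SD, n = 8) and 7 counts over both Panc02 libraries. Macrophage, fibroblast and T cell markers were high in every allograft (T cell markers 52.2 to 141 CPM, 0 in Panc02), so RNA of host cells and of Panc02 cells cannot be told apart for any of these genes.

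**Figure D4:**
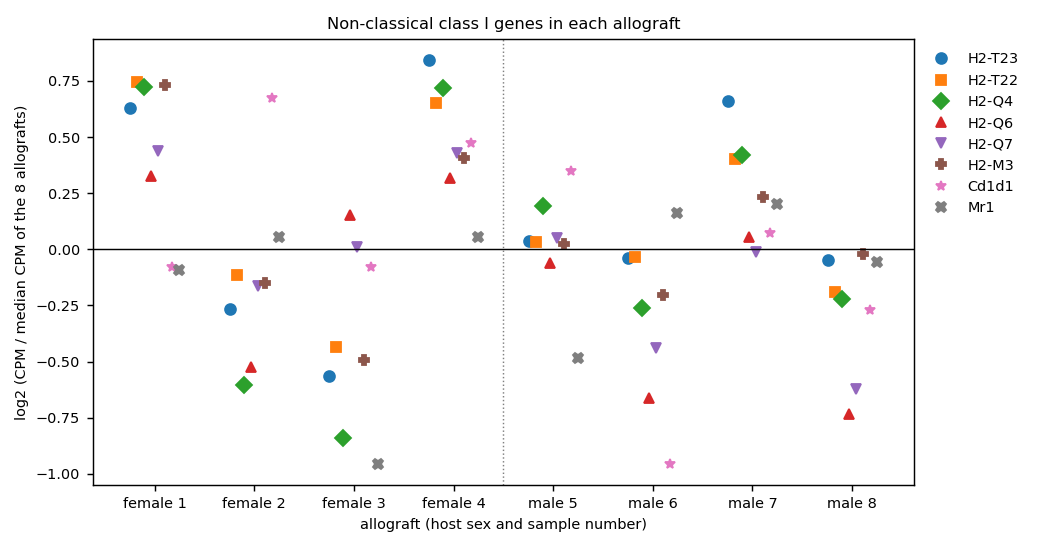
Log2 of the CPM of each gene over its median in the 8 allografts, by host sex and sample number; symbols are genes. H2-T23, H2-T22 and H2-Q4 are highest in female 1, female 4 and male 7 and lowest in female 3, while Cd1d1 and Mr1 follow another order.

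Levels varied among the 8 allografts. The highest library was 2.08 times (H2-Q6 and H2-Q7) to 3.09 times (Cd1d1) the lowest. H2-T23 had 318, 171, 139 and 369 CPM in female hosts, against 211, 200, 325 and 199 CPM in male hosts. Female 1, female 4 and male 7 were high and female 3 was low, and H2-T22 and H2-Q4 had the same 3 high libraries. Macrophage markers were also lowest in female 3 and highest in female 1, and muscle markers were high in female 2, female 4 and male 7 (15212, 23692 and 7352 CPM, against 541 to 3099 CPM in the other 5); their part was not tested. Between hosts, 0 of the 8 genes passed by edgeR at a background of 0.0146% (3 of 20560 genes), 1 of 8 had an unadjusted p below 0.05, as did 3087 of all genes, and DESeq2 called 0. H2-Q7 had the largest log2 fold change at 0.48 (SE 0.20, edgeR adjusted p = 0.306), with 43.7 ± 9.01 CPM in female and 32.4 ± 7.14 CPM in male hosts (SD, n = 4 each). Mr1 was at -0.11 (SE 0.25) and the other 6 genes lay between 0.14 and 0.46.

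Over all 22 libraries the 8 genes fell into patterns that other genes shared, measured as Pearson's r of log2(CPM + 1) among 15568 genes with a mean of at least 1 CPM. These are descriptions, since the libraries share sample types, and the large gaps between Panc02, NK cells and allografts carry most of each r. H2-T23 was most like H2-T22 (0.991), Psmb8 (0.986) and Zbp1 (0.984), and H2-T22 most like Psmb9 (0.992). H2-Q4 was most like the classical gene H2-K1 (0.997), Tap2 (0.994) and Nmi (0.992). H2-Q6 and H2-Q7 were most like each other (0.998), followed by Rinl (0.996 for both), and share multi-mapped reads. H2-M3 was most like Ggh (0.994), Cd1d1 most like P2ry10b (0.991) and Mr1 most like Cyp4v3 (0.990), none of which is a class I gene. Among the 8 genes themselves r ran from 0.72 for H2-T23 with Cd1d1 to 1.00 for H2-Q6 with H2-Q7.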

How the data were processed

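The authors deposited raw read counts of genes for 22 libraries. The submitters' processing notes name featureCounts 2.0.6, cutadapt 4.4, SAMtools 1.19.2, HISAT2 2.2.1 and build GRCm39. Per the file headers, exons of Ensembl release 113 were counted on the reverse strand, with multi-mapping reads included and the mates of a pair counted singly. Between 66.4% and 78.6% of low counts (1 to 20) were even, so single counts are not independent; the floor of 3 counts covers counting error only. Symbols came from the reference gene table (51498 of 78298 IDs). Groups follow the labels.

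CPM and RPKM were computed from these counts. Differences were tested with edgeR 4.0.16 (TMM, filterByExpr, robust quasi-likelihood test, Benjamini-Hochberg threshold 0.05) in R 4.3.3, in 4 fits: 8 NK libraries (biological coefficient of variation 0.156, 4 residual degrees of freedom), 6 co-culture and Panc02 libraries (0.0601), 10 allograft and Panc02 libraries (0.372) and 8 allografts (0.363). "Rose" and "fell" mean an adjusted p below 0.05. SE was taken as the log2 fold change over the root of F. DESeq2 1.42.0 was an alternative. The scripts were tested on simulated data. All members are named; from other lists at most 4 genes per comparison were named by smallest p, with those going the other way, besides H2-K1, H2-D1, B2m, Nlrc5, Klrc1 and Klrd1. Members and lists were chosen with earlier results of these data known. Itgax, Flt3 and Clec9a were chosen after their values were seen. A single item of these lists is not reported here.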

Additional observations from a re-analysis of the deposited data

Results flagged for a closer look

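H2-T23 stood apart in the allograft of male host 7 with 325 CPM, against 199 to 211 CPM in the other 3 male hosts, a gap above the critical value of Dixon's test for 4 samples. Chance alone gives such a gap in about 1 of 20 groups, and 16 groups were looked at (8 genes in each host sex). The same library had the highest H2-T22 of the male hosts (172 CPM).

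Co-cultures with female and with male NK cells differed for 5 genes, all higher with female NK cells. The log2 fold change was 0.87 for H2-Q7, 0.69 for H2-Q4, 0.61 for H2-Q6, 0.48 for H2-T23 and 0.44 for H2-T22. These are the differences given above, taken directly between the co-cultures, and not a test of the response over Panc02 or monoculture. The NK share of the RNA moved in the same direction, and with the NK part taken off H2-Q7, H2-Q4 and H2-Q6 did not pass.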

How the results depend on the processing

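Alternatives were median-ratio scaling, no filter on low counts, DESeq2, summed paralogs, each library left out, each sex alone, other sets of libraries in the fit, a replicate block and, chosen after the data were seen, the NK part taken off the co-cultures and the muscle-rich allografts left out. The counts of members passing in monoculture against fresh cells, between the sexes in monoculture and in both allograft comparisons stayed within 1.5 times under all of them. Between the sexes of fresh cells 0 passed with paralogs summed, and 0 to 1 with each library left out. For the change of the sex difference with culture 1 passed with no filter and 1 with DESeq2, and 0 to 1 with each library left out. Between co-cultures with female and male NK cells 2 to 5 passed with each library left out. With the NK part taken off at a share taken as exact, 3 members passed against Panc02, H2-Q7 narrowly, and 2 between the sexes. The cause of these shifts was not tested, except that summing joins H2-Q6 and H2-Q7 by construction.

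With the NK part taken off, signs turned for H2-Q4 and H2-T10 against Panc02 (-0.05 and -0.10) and for H2-Q6 and Mr1 between the sexes (-0.90 and -0.30). The other turned signs belong to values that passed in neither fit. Cd1d1 in monoculture against fresh cells was -0.01 with median-ratio scaling and -0.01 with DESeq2. Between the sexes in monoculture H2-T23 was 0.02 with median-ratio scaling, 0.02 with DESeq2 and 0.02 with the 4 monocultures alone, and H2-Q6 was -0.01 without the filter and -0.00 with 12 libraries in 1 fit. The interaction of H2-Q7 was 0.04 with median-ratio scaling and 0.04 with DESeq2. With each library left out, log2 fold changes that crossed 0 ran from -0.06 to 0.13 (H2-Q7) and -0.20 to 0.18 (H2-M3) between fresh cells of the sexes, from -0.05 to 0.01 (H2-T23), -0.08 to 0.06 (H2-Q6) and -0.06 to 0.15 (H2-Q7) between monocultures, and from -0.12 to 0.13 (H2-Q7), -0.35 to 0.05 (H2-M3) and -0.09 to 0.13 (Mr1) for the interaction. They ran from -0.25 to 1.01 (Cd1d1) and -0.25 to 0.32 (Mr1) between co-cultures of the sexes, and from -0.12 to 0.36 (H2-T23), -0.08 to 0.41 (H2-Q4) and -0.25 to 0.09 (Mr1) between host sexes.

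Same-numbered samples of monoculture and fresh cells share a number and a prefix of the library name. Their deviations from the group means correlated at 0.05 for samples 1 and 2 and at 0.21 for samples 4 and 5. With 2 libraries per group, these values cannot decide whether same-numbered samples come from the same animal. With the sample number as a replicate block, 4 members passed in monoculture against fresh cells and 0 in the interaction, as without it. In all, 490 genes passed in the interaction, against 323 without the block. That count was 872 without the filter, 902 with DESeq2 and 546 with 12 libraries in 1 fit. Between monocultures of the sexes 109, 39 and 23 genes passed under the same alternatives, against 15. Between co-cultures of the sexes 422 passed without the filter and 79 with the NK part taken off, against 207. Between host sexes 549 passed with DESeq2 and 14 without the filter, against 3. Fits that leave a group with 1 library assume that it varies like the others. Depth limits Cd1d1, H2-M3 and Mr1 in co-culture and Panc02, where they had 0 to 2.16 CPM.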

Other observations

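Monocultures held some signal of the epithelial marker genes used for Panc02. Those 5 markers summed to 18.1 and 25.0 CPM in female and 14.6 and 28.0 CPM in male monocultures, against 2.46 to 5.00 CPM in fresh NK cells and 2951 and 2981 CPM in Panc02 alone.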
